A study of Mus musculus with 2 samples.

Results

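The contractile genes Acta2, Tagln, Myl9, Tpm1, Tpm2, Cnn2, Cald1 and Mylk were followed across the epithelial cells of newborn mouse back skin. They are 8 of the 32285 genes listed in the count tables, found by their symbols, and they were chosen by earlier results on these same libraries, in which Tagln and Acta2 were leading genes of a cluster, so their levels are a description without a test. Epithelial cells were taken as the cells with at least 10 unique molecular identifiers (UMIs, 1 per captured mRNA molecule) of the basal keratins Krt5 and Krt14 together, which held for 12069 of the 15463 cells that passed the filters.

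Single cells positive for the tdTomato reporter were sorted from back skin at postnatal day 1 and profiled at the 3′ ends of their mRNAs. There was 1 library of the genotype WT and 1 labelled PADI4 cKO. The protocol given for both names mice with K14-Cre and Padi4 fl/fl, in which the keratin 14 promoter drives Cre in basal epithelial cells and their progeny, and the study's methods add the Ai14 tdTomato reporter. The epidermis was peeled off and the dermal fraction with its growing hair follicles (HFs) was used, and the number and sex of the animals behind each library are not given in the sources used here. With 1 library per genotype there was no replicate check, and all intervals below are exact 95% intervals for counting error only.

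Contraction in smooth muscle and in many other cells comes from myosin filaments that pull on actin filaments. Myosin is switched on when myosin light chain kinase phosphorylates its regulatory light chain in response to calcium and calmodulin, while tropomyosin, calponin-family proteins and caldesmon sit along the actin filament and set how it can be used. Many of the genes for these proteins are driven by the transcription factor SRF with its actin-sensing partners of the MRTF family, which bind a short DNA element named the CArG box. In skin, Acta2 is best known from the arrector pili muscle, blood vessel walls and the dermal sheath around the HF, all of them outside the epithelium, and in glands it also marks the myoepithelial cells, which carry basal keratins.

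Both libraries were sequenced to similar depth, with 143938990 and 143945294 UMIs. The filters kept 8069 WT cells and 7394 cells labelled PADI4 cKO, and 14 of their barcodes occurred in both. Of these, 6136 and 5933 were epithelial by the keratin rule, with a median of 15131 and 16152 UMIs per cell. Padi4, the gene labelled as deleted, was found with 80 and 76 UMIs in the epithelial cells (0.780 and 0.717 per 1000000 UMIs), so its count does not separate the libraries, and whether the counted 3′ end lies outside the deleted part is not given in the sources used here. The libraries also differed in sex: cells with Xist UMIs and none of the Y-linked genes made up 25.6% of the WT epithelial cells and 98.5% of those labelled PADI4 cKO, while cells with the reverse pattern made up 63.1% and 0%. Library differences over all epithelial cells and in the cluster highest in Acta2 are therefore also given for the cells with Xist alone where they change. Those in the other clusters were not computed for the cells with Xist alone. Outside the mixed and melanocyte-like clusters described below, RNA from broken cells could account for at most 9.12% and 8.97% of the UMIs of epithelial cells. This limit was judged from the collagen genes Col1a1, Col1a2 and Col3a1.

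In the mm10 (GRCm38) annotation the genes lie on 8 separate stretches. Acta2, the smooth muscle actin, lies at chr19:34241090-34255590 on the minus strand. Tagln, which encodes the actin-bundling protein transgelin of the calponin family, lies at chr9:45929619-45936058 on the minus strand, and Cnn2, the calponin that is not restricted to muscle, at chr10:79988584-79996062 on the plus strand. Cald1, which encodes caldesmon, an actin- and myosin-binding inhibitor of contraction, lies at chr6:34598500-34775473 on the plus strand. The tropomyosin genes Tpm1 and Tpm2 lie on the minus strand at chr9:67022590-67049406 and chr4:43514711-43523765. Myl9, a regulatory light chain of myosin, lies at chr2:156775420-156781658 and Mylk, the myosin light chain kinase, at chr16:34745210-35002420, both on the plus strand. Tagln overlaps Pcsk7 on the opposite strand, and Cald1 and Mylk each overlap 3 genes on the opposite strand. Counting reads by their 3′ ends could mix up close relatives, but of the 31-base stretches in the last 500 bases of the members' transcripts at most 2.23% (Cnn2) occurred in another listed gene, and none did for Acta2, Tagln and Mylk.

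The promoters of 3 members are shown because they differ in how they match the CArG box. RefSeq promoters (GRCm38.p6, 250 bases before to 50 after a start) were found for 7 of the 8 members, all but Tagln. The exact CArG letters, searched on both strands, occurred in the promoters of Myl9 and Cnn2, and in 1.63% of all 32851 promoters. Acta2 had no exact match but 2 stretches that missed it by 1 letter, starting 84 and 34 bases before the start, and such near matches also occurred in Myl9, Tpm1 and Cald1, against 19.9% of all promoters. The Acta2 promoter (chr19:34255324-34255623, minus strand) has the near matches in capitals, and the Myl9 promoter (chr2:156775214-156775513, plus strand) and the Cnn2 promoter (chr10:79988350-79988649, plus strand) have the exact match in capitals. They read, 5′ to 3′:
Acta2: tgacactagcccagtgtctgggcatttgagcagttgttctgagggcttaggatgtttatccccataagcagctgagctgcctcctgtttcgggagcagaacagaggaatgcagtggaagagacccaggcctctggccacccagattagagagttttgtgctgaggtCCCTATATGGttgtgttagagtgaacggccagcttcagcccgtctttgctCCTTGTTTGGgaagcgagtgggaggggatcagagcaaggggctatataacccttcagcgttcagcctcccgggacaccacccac
Myl9: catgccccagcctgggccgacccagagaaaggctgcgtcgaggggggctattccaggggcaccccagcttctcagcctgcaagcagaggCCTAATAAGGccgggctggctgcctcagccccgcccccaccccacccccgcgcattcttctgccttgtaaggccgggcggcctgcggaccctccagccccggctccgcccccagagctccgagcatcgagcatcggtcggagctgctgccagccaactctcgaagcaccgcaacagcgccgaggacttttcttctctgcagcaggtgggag
Cnn2: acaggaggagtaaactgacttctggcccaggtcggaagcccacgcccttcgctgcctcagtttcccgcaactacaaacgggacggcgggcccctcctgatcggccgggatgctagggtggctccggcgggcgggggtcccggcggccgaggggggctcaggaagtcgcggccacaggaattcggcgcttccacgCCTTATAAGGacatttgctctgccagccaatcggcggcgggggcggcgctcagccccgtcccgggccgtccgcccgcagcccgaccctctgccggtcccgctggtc

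The match in Myl9 began 161 bases before the start and that in Cnn2 56 bases before it. Tpm2 and Mylk had neither an exact nor a near match, which says only that these letters are not in these windows. A match is a stretch of letters and was not tested as a binding site. Among the wider contractile lists below, exact matches were found for Actg1, Myl6 and Vcl of 19 nonmuscle partner genes with a promoter and for Srf of 13 regulators, and for none of 9 smooth muscle restricted genes.

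Over all epithelial cells, the members ranged from genes found in most cells to genes found in few. Levels are in CPM, the UMIs of a gene per 1000000 UMIs of all genes in the same cells. Acta2 stood at 31.03 CPM in the WT library (interval 29.96 to 32.12) and 16.80 CPM in the library labelled PADI4 cKO (16.03 to 17.60), and 4.94% and 2.97% of the cells had at least 1 UMI of it. Tagln stood at 141 and 129 CPM and was found in 13.4% and 11.9% of cells. Both genes were thus read from a minority of the epithelial cells. Cald1, at 353 and 316 CPM, was found in 69.1% and 67.5% of cells. Tpm1, at 248 and 206 CPM, was found in 57.4% and 52.7%. The mRNAs of these actin-filament proteins were therefore read from most epithelial cells of both libraries at full depth. Tpm2 stood at 64.7 and 54.8 CPM with 42.7% and 40.5% of cells. Myl9 stood at 55.3 and 50.4 CPM with 19.4% and 20.7%. Cnn2 stood at 40.2 and 34.7 CPM with 34.6% and 33.0%. The kinase Mylk was hardly found at all, with 109 and 118 UMIs in all epithelial cells, 1.06 and 1.11 CPM, and 1.14% and 1.06% of cells. After each cell was thinned to 2000 UMIs to set depth equal, Acta2 was found in 2.15% and 1.31% of cells. At that depth Tpm1 was found in 23.6% and 19.7% of cells and Cald1 in 38.2% and 35.98%.

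Cells were clustered without the 8 members among the genes used, which gave 24 clusters, 17 of them with at least 50 epithelial cells in each library. In 1 of these groups, cluster 15, 7 of the 8 members reached their highest level in both libraries. It held 485 epithelial cells of the WT library and 390 of the library labelled PADI4 cKO, or 7.90% (7.24 to 8.61) and 6.57% (5.96 to 7.23). Among epithelial cells with Xist alone the shares were 10.2% (8.79 to 11.9) and 6.62% (5.999 to 7.29), and among the WT cells with Y-linked UMIs alone 7.19%. Its leading genes besides Tagln, Acta2 and Myl9 were Olfml2b, Anxa3, Ddit4l, Fgf5, Slpi, Krt19 and Cfap299. Of the outer root sheath (ORS) markers, Tbx1 was at least 2-fold higher in both libraries (log2 difference from the other epithelial cells 1.34 and 1.33). Nfatc1 was at least 2-fold lower (−2.79 and −3.27). Krt15 (0.72 and 1.01), Lhx2 (0.23 and 0.04) and Sox9 (−0.63 and −0.84) did not reach 2-fold in both. By the 1.5-fold naming rule, Krt15 and Tbx1 counted as raised. Of the hair medulla markers, Padi3 was higher (2.41 and 3.07), while Mt4 (−3.58 and −3.68) and Foxq1 (−3.85 and −5.40) were lower. Of the lower proximal cup markers, Lgr5 (0.98 and 0.92) and Ptch1 (0.30 and 0.17) were within 2-fold. Edar, Npr3, Shh and Sp5 were at least 2-fold lower in both libraries. Of the companion layer markers, Krt17 (0.77 and 0.95), Krt75 (−0.32 and 0.75) and Krt6a (0.04 and −0.91) did not reach 2-fold. No list had enough raised markers for a cell type name by the rule used, so cluster 15 is called the Acta2 cluster here. Because Tagln, Acta2 and Myl9 vary with the genes that made the clusters, the height of the members in it is a description.

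**Figure D1:**
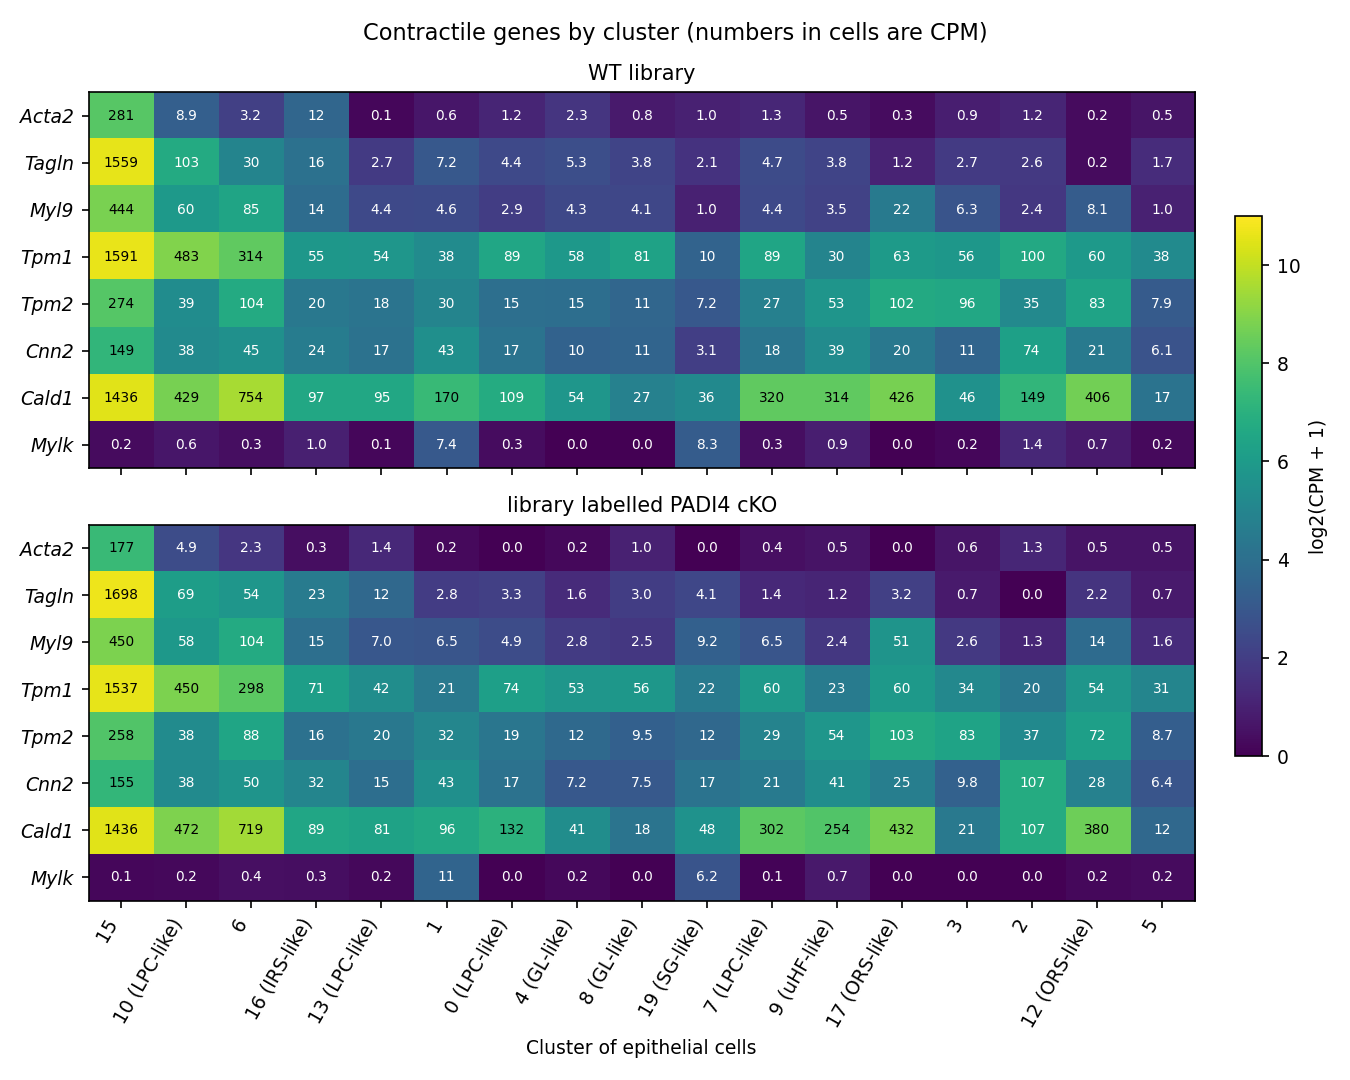
Heat map of the level of each contractile gene (rows) in the 17 groups of epithelial cells (columns), coloured by log2(CPM + 1) with the CPM written in, for each library. Cluster 15 stands highest for Acta2 (281 and 177 CPM), Tagln, Myl9, Tpm1, Tpm2, Cnn2 and Cald1, while Mylk is highest in clusters 1 and 19.

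Transgelin showed the widest gap when all other epithelial cells were counted. Without the mixed and melanocyte-like clusters the order was reversed, with 7.06 for Acta2 and 6.67 for Tagln on the log2 scale over both libraries. Tagln stood at 1559 CPM in the Acta2 cluster of the WT library and 1698 in that of the library labelled PADI4 cKO, and the other epithelial cells lay 6.42 and 6.50 lower on the log2 scale. Acta2 reached 281 and 177 CPM, 4.92 and 4.99 above the other cells on that scale. The myosin light chain Myl9 reached 444 and 450 CPM, 4.36 and 4.33 above. These 3 genes had the largest log2 differences among the members. Tpm1 reached 1591 and 1537 CPM (3.60 and 3.78 above). Tpm2 reached 274 and 258 CPM (2.56 and 2.67 above). Caldesmon, Cald1, stood at 1436 CPM in both (2.47 and 2.60 above). The calponin Cnn2 was close to these with 149 and 155 CPM (2.27 and 2.57 above). All 7 were at least 2-fold higher in both libraries, against 5.3% of the 14611 genes compared that were at least 2-fold higher and 8.43% that were at least 2-fold lower there. Mylk ran the other way, with 2 and 1 UMIs in the whole cluster (0.244 and 0.144 CPM), which is about the level that free RNA alone could give (at most 0.195 and 0.221 CPM).

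The cluster held most of the epithelial UMIs of some members and a smaller share of others. It had 88.1% and 86.4% of the Tagln UMIs, 72.4% and 69.1% of the Acta2 UMIs and 64.1% and 58.5% of the Myl9 UMIs. For Tpm1 the shares were 51.2% and 49.0%. Tpm2, Cnn2 and Cald1 had between 29.3% and 33.8% of their UMIs there, so most of their UMIs came from the rest of the epithelium. For Mylk the shares were 1.83% and 0.847%.

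**Figure D2:**
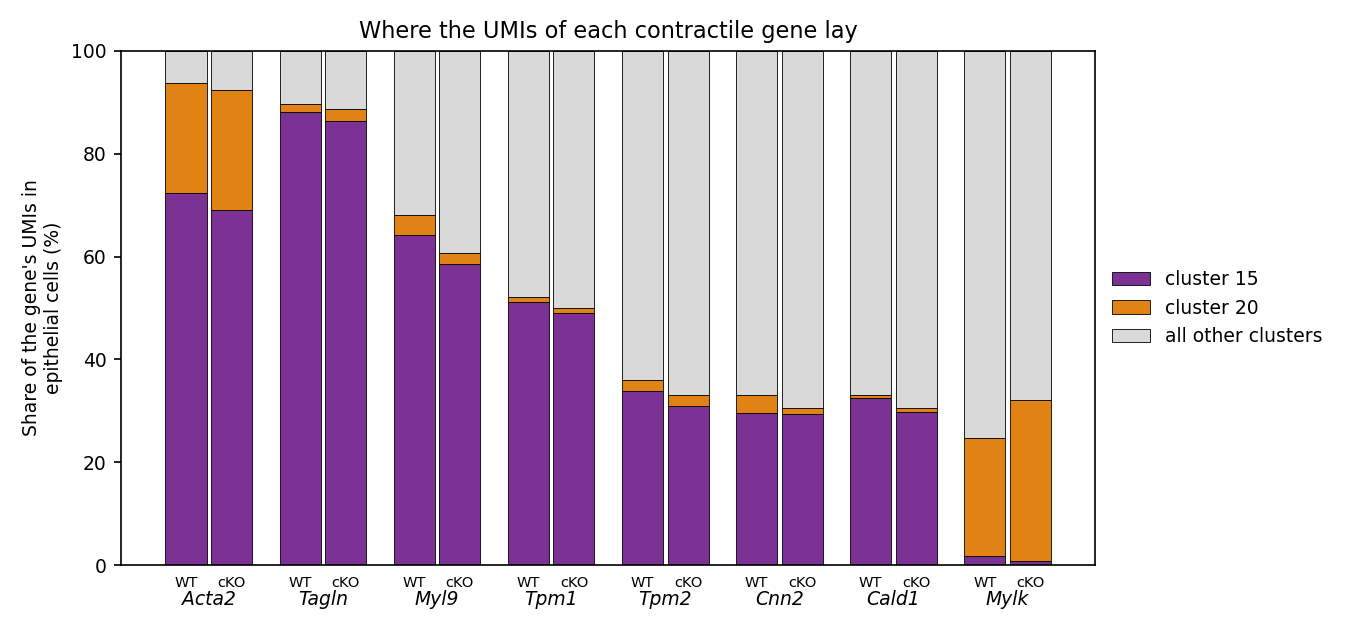
Stacked bars of the share of the epithelial UMIs of each gene (percent) that lay in the Acta2 cluster, in mixed cluster 20 and in all other epithelial cells, for each library. Tagln lies almost wholly in the Acta2 cluster (88.1% and 86.4%), Acta2 also in the few cells of cluster 20 (21.2% and 23.3%), and Mylk almost wholly outside the Acta2 cluster.

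The members did not share their next highest groups. For Tagln the next group was cluster 10, named lower proximal cup (LPC)-like, at 103 and 69.1 CPM, followed by unnamed cluster 6, led by Pi15 and Sfrp1, at 30.3 and 54.1 CPM. For Tpm1 these were also cluster 10 (483 and 450 CPM) and cluster 6 (314 and 298 CPM). In both genes the Acta2 cluster was well apart from the next group, without overlap of the intervals in either library. Cald1 had the reverse order, with cluster 6 at 754 and 719 CPM and cluster 10 at 429 and 472 CPM. Myl9 also had cluster 6 (84.7 and 104 CPM) before cluster 10 (59.99 and 57.95 CPM). Tpm2 was level between cluster 6 (104 and 87.7 CPM) and the ORS-like cluster 17 (102 and 103 CPM), whose order switched between the libraries. Cnn2 was the only member whose next group was cluster 2, led by Stfa3, Stfa1 and Krt1, at 74.2 and 107 CPM, ahead of cluster 6 at 44.7 and 50.1 CPM. The kinase followed none of these. Mylk stood at 8.27 and 6.16 CPM in the sebaceous gland (SG)-like cluster 19 and at 7.41 and 10.6 CPM in cluster 1, led by Aldh3a1, Zfpm2, Scube2 and Pparg, and the intervals of these groups overlapped. In cluster 1, 7.23% and 9.97% of the cells had a UMI of Mylk.

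In the middle of the 16 other groups, Acta2 was below the level that free RNA could give, with cluster 10 above it. In cluster 10 it stood at 8.91 CPM (7.01 to 11.2) and 4.95 CPM (3.70 to 6.47), above the 3.59 and 3.06 CPM that free RNA could give at most. Cluster 16, the inner root sheath (IRS)-like group, had 11.5 CPM in the WT library, but 35 of its 36 UMIs came from 1 cell, and it had 1 UMI in the other library. The median over the 16 other groups was 0.968 and 0.492 CPM for Acta2 and 3.79 and 2.91 CPM for Tagln, both below their free-RNA limits (12.9 and 11.6 CPM for Tagln). For Cald1 that median was 129 and 101 CPM against a limit of 19.4 and 17.5 CPM, so Cald1 was well above free RNA in the middle group. Leaving out clusters 15, 20 and the melanocyte-like cluster 23, Acta2 had 200 and 136 UMIs, or 2.13 and 1.38 CPM.

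Within the Acta2 cluster, some members were found in every cell and others in part of the cells. Cald1 was found in 100% of cells in both libraries, with a median of 22 and 22.5 UMIs per cell. Tpm1 was found in 100% and 99.5%, with a median of 23 and 25 UMIs. Myl9 was found in 89.5% and 89.2%, Tpm2 in 84.1% and 83.1%, and Cnn2 in 79.2% and 81.5%. Tagln was likewise found in most cells, 82.3% and 83.6%, with a median of 12 and 15 UMIs and up to 193 and 232. Acta2 was found in only 40.6% (36.2 to 45.1) and 27.4% (23.1 to 32.2), its median was 0, and its highest cells had 78 and 77 UMIs. At 2000 UMIs per cell the shares for Acta2 were 21.6% and 16.7%.

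The smooth muscle actin was nested within transgelin. Of the 197 and 107 cells with Acta2, 96.4% and 96.3% also had Tagln. Of the cells with Tagln, 47.6% and 31.6% had Acta2. Only 7 and 4 cells had Acta2 alone, while 209 and 223 had Tagln alone and 79 and 60 had neither. The other members except Mylk were higher in cells with at least 10 Acta2 UMIs than in cells without. Tagln went from 753 and 1053 CPM in cells without Acta2 to 1456 and 1654 CPM with 1 to 4 UMIs, 3030 and 3334 CPM with 5 to 9, and 3888 and 4347 CPM with at least 10. Myl9 went from 286 and 348 CPM without Acta2 to 814 and 869 CPM in the cells with at least 10 UMIs. Tpm2 went from 179 and 189 CPM to 546 and 584 CPM. Both genes thus differed in the same direction in both libraries. Tpm1 (1298 and 1383 to 2325 and 2147 CPM), Cnn2 (118 and 129 to 205 and 235 CPM) and Cald1 (1324 and 1309 to 1843 and 1950 CPM) also ended higher, with smaller gaps, though WT Cnn2 was no higher there than in the cells with 5 to 9 UMIs (221 CPM). Cnn1, the smooth muscle calponin, which is not among the 8, went from 12.4 and 17.8 CPM to 72.0 and 91.8 CPM. Krt5 was lower at the upper end, with 1514 and 1509 CPM without Acta2 and 1143 and 1336 CPM with at least 10 UMIs. The median depth of these end bins was 15654 and 15396 against 17467 and 17716 UMIs per cell, and the upper bin held 74 and 41 cells, none of them a called doublet.

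**Figure D3:**
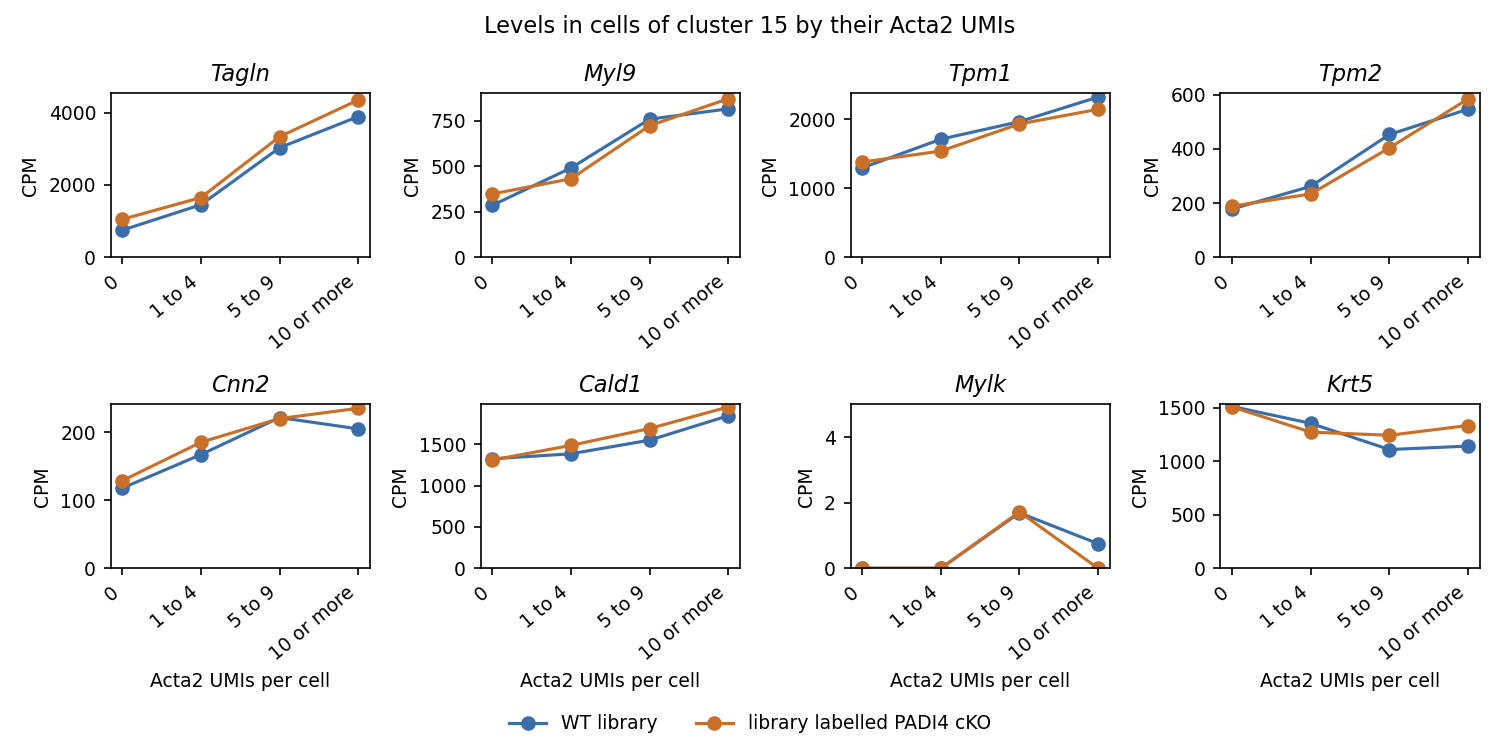
Level of the other contractile genes and Krt5 (CPM, linear axes from 0) in cells of the Acta2 cluster, binned by the Acta2 UMIs of the cell, with 1 line per library. Tagln is lowest in cells without Acta2 (753 and 1053 CPM) and highest in cells with at least 10 UMIs (3888 and 4347 CPM), and Krt5 ends lower (1143 and 1336 CPM) than it starts.

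After thinning to 2000 UMIs, Myl9 was found in 70.5% and 75.4% of the cells of this cluster with Acta2 and in 42.9% and 45.8% of those without. For Tpm2 the shares were 64.8% and 56.9% with Acta2 and 31.8% and 27.1% without. The pairs therefore occurred together more often at equal depth as well.

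At a finer resolution, chosen for display after the clusters had been seen, most of the Acta2 cluster fell into 2 groups that were high in different members. The larger held 45.8% of it and was led by Olfml2b, Unc13c, Slpi and Matn4, and the smaller held 29.9% and was led by Slc7a11, Cdo1, Ggt1 and Cnn1. Acta2 stood at 284 and 160 CPM in the larger and 453 and 303 CPM in the smaller. Tagln stood at 1669 and 1658 CPM against 2202 and 2510 CPM, and Tpm1 at 1377 and 1378 CPM against 2272 and 2140 CPM. The smaller group was thus higher in these genes in both libraries. Cald1 had the opposite order, with 1670 and 1630 CPM in the larger and 1308 and 1409 CPM in the smaller group. Tpm2 had no common order, at 351 and 278 CPM in the larger and 276 and 316 CPM in the smaller.

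A second source of Acta2 was a handful of cells in cluster 20. This cluster of 76 cells, 31 of them epithelial by the keratin rule, raised as many fibroblast as smooth muscle and pericyte markers and was left unnamed after its cells had been seen to be mixed. Over its epithelial cells, 21 and 10 in number, Acta2 stood at 1512 and 1788 CPM, above the Acta2 cluster. They were then split by their counts: 10 cells of the WT library and 5 of the library labelled PADI4 cKO had at least 10 Acta2 UMIs. Per cell they had 18 to 144 Acta2 UMIs (median 65.5) and 21 to 147 (median 61). These 15 cells held 21.0% and 22.9% of all epithelial Acta2 UMIs and 21.1% and 25.4% of the Mylk UMIs, but 1.49% and 2.04% of the Tagln UMIs. Their Acta2 level, 2684 and 4441 CPM, was above that of Tagln, 868 and 3034 CPM, after they had been picked for their Acta2. Cells of the Acta2 cluster with as many Acta2 UMIs stood at 1418 and 1191 CPM for Acta2 and 3888 and 4347 CPM for Tagln. The kinase was present in them, with Mylk at 92.4 and 327 CPM from 23 and 30 UMIs. Myl9 stood at 868 and 1113 CPM, Tpm2 at 470 and 1244 CPM, Tpm1 at 639 and 1539 CPM, Cald1 at 530 and 2019 CPM and Cnn2 at 442 and 306 CPM. Except for Cnn2, each member was higher in the 5 cells than in the 10.

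The 15 cells had markers of epithelium beside their basal keratins, which the keratin rule requires, and few collagen UMIs, while smooth muscle markers varied from cell to cell and between the libraries. The epithelial adhesion gene Epcam was found in 10 of 10 and 5 of 5 cells, at 514 and 164 CPM, and the basal epithelial transcription factor gene Trp63 in 8 and 4 cells, at 257 and 469 CPM. The 3 collagen genes Col1a1, Col1a2 and Col3a1 had 6 and 1 UMIs in all. Myh11, the smooth muscle myosin heavy chain, was found in 4 and 3 cells (40.2 and 567 CPM), Cnn1 in 4 and 5 (92.4 and 709 CPM) and Actg2, the enteric smooth muscle actin, in 9 and 4 (117 and 1222 CPM). Smtn stood at 16.1 and 196 CPM, and Des had no UMI in either library's cells. Oxtr, the oxytocin receptor, was found in 0 and 4 cells, at 0 and 240 CPM. Sox10, a neural crest and gland transcription factor gene, stood at 112 and 65.5 CPM. The 2 libraries' cells were not alike: Chrm3, a muscarinic acetylcholine receptor, was found in 10 of 10 and 1 of 5 cells, at 1366 and 10.9 CPM. Of the 10 WT cells, 7 had Xist and no Y-linked UMI. No cell type name was given to them, since no marker list for such cells had been set.

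Around the 8 members, genes of the wider contractile machinery differed by list in the Acta2 cluster. Of 21 actin and nonmuscle partner genes, 16 were at least 2-fold higher in it in both libraries and 0 lower, with a median log2 difference of 1.26 and 1.36, where the median over all 14611 genes compared was −0.09 and −0.10. Zyx, which encodes the focal adhesion protein zyxin, stood at 256 and 252 CPM in the cluster and 27.12 and 25.01 CPM elsewhere. Pdlim7 (log2 difference 2.06 and 2.18), Csrp1 (1.84 and 1.94), the filamin gene Flna (1.83 and 1.83), the myosin essential light chain gene Myl6 (1.79 and 1.83) and the vinculin gene Vcl (1.68 and 1.62) were also higher. The nonmuscle actins Actb (1.01 and 1.11) and Actg1 (1.39 and 1.43) were raised by less than Acta2. Myh14, Myl12b, Tpm3 and Actn4 were among those that did not reach 2-fold in both libraries.

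The smooth muscle restricted genes were split. Of 12 such genes, 6 had enough UMIs to compare, and 3 of these were at least 2-fold higher and 2 lower in both libraries, where 5.3% and 8.43% of all genes compared were. Cnn1 stood at 28.3 and 32.5 CPM (log2 difference 4.49 and 4.21), the smoothelin gene Smtn at 175 and 190 CPM (2.71 and 2.73), and Actg2 at 2.93 and 6.05 CPM (2.73 and 2.21). Synpo2, an actin-bundling protein gene, was lower, at 12.9 and 9.50 CPM against 100 and 143 CPM elsewhere, as was the integrin gene Itga8 at 1.83 and 1.73 CPM. Myh11 was found with 3 and 5 UMIs in the cluster. The muscle filament gene Des had 0 and 1 UMIs, and Myocd, the SRF partner of smooth muscle, had 0 UMIs in both libraries, which allows up to 0.366 and 0.432 CPM.

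Most regulators of contraction stayed within 2-fold of their level elsewhere, in both directions. Of 16 genes 1 was at least 2-fold higher and 0 lower, beside 5.3% and 8.43% of all genes compared, with a median log2 difference of 0.11 and 0.07. The gene that was higher, Srf, stood at 18.9 and 16.8 CPM against 8.85 and 8.42 CPM. Its partner gene Mrtfa stood at 266 and 277 CPM, 0.92 higher on the log2 scale in both libraries. Dapk3, which encodes a kinase of the myosin light chain, differed by 0.78 and 0.85, and Ppp1r14b, which encodes an inhibitor of protein phosphatase, by −0.96 and −0.71. Of 4 matricellular genes with enough UMIs, Ccn2 was higher, at 86.0 CPM in the cluster of each library.

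**Figure D4:**
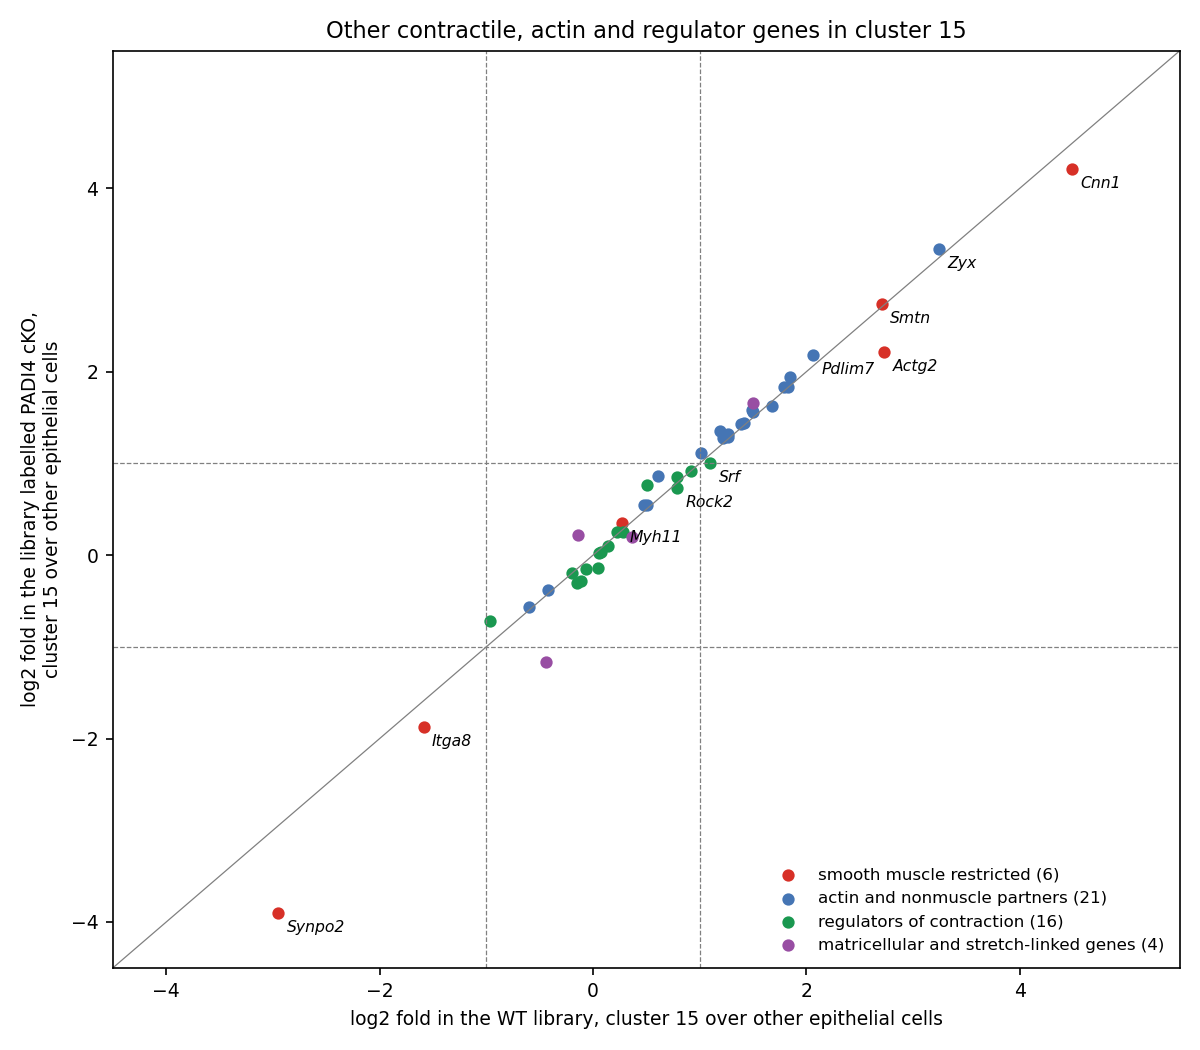
Log2 difference between the Acta2 cluster and the other epithelial cells in the WT library (x axis) and the library labelled PADI4 cKO (y axis), with 1 point per gene of 4 lists and dashed lines at 2-fold. Of the nonmuscle partner genes 16 of 21 lie at or above 1 in both libraries, while the regulators have a median of 0.11 and 0.07.

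Markers of other cell types were checked in the Acta2 cluster. The 6 fibroblast markers summed to 5.49 and 5.90 CPM in it and to 14.1 and 13.6 CPM in the other epithelial cells, and 3 and 2 of them were at 0. The 11 smooth muscle and pericyte markers summed to 212 and 203 CPM against 77.8 and 77.2 CPM elsewhere, with 5 and 4 of them at 0. That sum came from Cspg4 (145 and 144 CPM) and Mcam (57.4 and 53.1 CPM), while the pericyte marker Rgs5 had 1 and 0 UMIs and Pdgfrb 0 and 1. Called doublets made up 2.29% of its cells.

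Between the libraries, Acta2 was the member with the largest difference. The log2 ratio of the library labelled PADI4 cKO over the WT library was −0.88 (−0.97 to −0.80) for Acta2 in the epithelial cells. For Tpm1 it was −0.27, for Tpm2 −0.24, for Cnn2 −0.21, for Cald1 −0.16, and for Tagln and Myl9 −0.13. Mylk had a ratio of 0.07 (−0.32 to 0.46), which its UMIs could not tell from 0. Thus 1 of 8 members lay below −0.5 and 0 above 0.5, where 3.92% of the 14611 genes compared lay below and 1.66% above.

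Inside the Acta2 cluster the difference was again that of Acta2. Its ratio was −0.67 (−0.77 to −0.57), from 281 to 177 CPM. Tagln had a ratio of 0.12 (0.09 to 0.16), Cnn2 0.06, Myl9 0.02, Cald1 0.00, Tpm1 −0.05 and Tpm2 −0.08. Of the 7 members with at least 100 UMIs there, 1 lay below −0.5 and 0 above 0.5, while 2.42% of the 9797 genes compared in this cluster lay below and 0.806% above. The lower Acta2 level therefore stood beside ratios within 0.5 for the other 6 members.

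The Acta2 difference changed with the cells compared. Among cells with Xist and no Y-linked UMIs, the ratio inside the cluster was −0.44 (−0.58 to −0.30), with 242 CPM for WT and 178 CPM for PADI4 cKO. Within the WT library, the cells of the cluster with Y-linked UMIs alone stood 0.29 (0.15 to 0.43) above those with Xist alone, at 296 CPM. The share of cells with Acta2 in the cluster was 33.5% in the WT cells with Xist alone and 43.9% in those with Y-linked UMIs alone, against 27.4% for PADI4 cKO. Across all epithelial cells with Xist alone the ratio was −1.46 (−1.57 to −1.35), and −1.06 (−1.20 to −0.93) once the mixed and melanocyte-like clusters were left out. In the same cells, mixed clusters included, the ratio was −0.54 (−0.61 to −0.46) for Myl9, −0.50 for Tpm2, −0.46 for Tpm1, −0.45 for Tagln, −0.35 for Cnn2 and −0.26 for Cald1. That of Mylk was −0.74 (−1.23 to −0.20), from 46 and 118 UMIs, and −0.64 (−1.26 to 0.06) without the mixed and melanocyte-like clusters, where Myl9 stood at −0.45, Tpm2 at −0.46 and Cnn2 at −0.23. Thus, mixed clusters included, 3 of 8 members (Acta2, Myl9 and Mylk) lay below −0.5 among the cells with Xist alone, against 2.5% of 13620 genes below and 2.72% above. Without the mixed and melanocyte-like clusters, Myl9 did not lie below −0.5 and the Mylk interval included 0. The Acta2 cluster made up 10.2% of the WT epithelial cells with Xist alone and 6.62% of those labelled PADI4 cKO. Inside the Acta2 cluster the ratios of the other members except Mylk stayed near their values over all its cells, such as 0.14 for Tagln, −0.02 for Myl9 and −0.02 for Cald1. The part of sex, litter or animal in these differences was not tested and, with 1 library per genotype, cannot be told apart from the genotype.

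**Figure D5:**
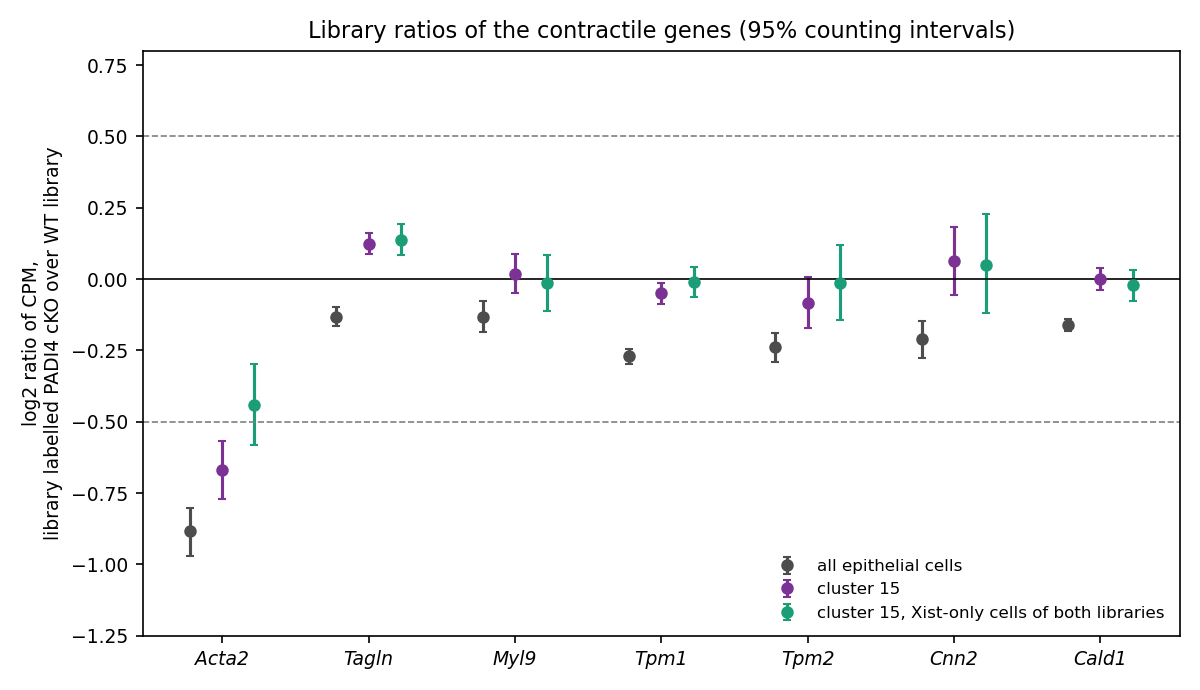
Log2 ratio of 7 contractile genes (all but Mylk), library labelled PADI4 cKO over WT library, in all epithelial cells, in the Acta2 cluster and in its cells with Xist alone, with exact 95% counting intervals and dashed lines at −0.5 and 0.5. Acta2 lies lowest in the epithelial cells (−0.88) and in the cluster (−0.67), and Tagln and Cald1 lie near 0 in the cluster.

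In other groups Tagln had no common direction between the libraries. Tagln was higher in cluster 6 of the library labelled PADI4 cKO (ratio 0.83, 0.62 to 1.05) and lower in its cluster 10 (−0.58, −0.72 to −0.44). In the LPC-like cluster 13 it had 19 UMIs in the WT library and 137 in the other (2.70 and 12.3 CPM), near its free-RNA limit, but 105 of the 137 UMIs came from 1 cell, without which it stood at 2.89 CPM. Acta2 was lower in cluster 10 as well (−0.85, −1.38 to −0.32), from 75 and 53 UMIs. The ratios of this paragraph were not computed for the cells with Xist alone.

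Over the 17 groups, the members fell into patterns that can be described by the correlation of log2(CPM + 1). All points of 1 library share its depth and free RNA. The Acta2 cluster is 1 of the points, and how much of each value rests on it was not tested. Acta2 and Tagln had r = 0.94 (WT) and 0.85 (PADI4 cKO). Tagln and Tpm1 had 0.85 and 0.91, and Tpm2 and Cald1 0.81 and 0.76. Tagln and Tpm2 were less alike, with 0.47 and 0.48. Mylk had values between −0.43 and 0.10 with the other members.

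Among 13104 genes, those with a pattern over the groups most like that of a member in both libraries were Matn4 for Acta2 (0.91 and 0.94), Tm4sf1 for Tagln (0.90 and 0.91) and Upk1b for Myl9 (0.94 and 0.93). For Tpm1 it was Rasa1 (0.95 and 0.96), for Tpm2 Palld, which encodes the actin-associated protein palladin (0.93 and 0.93), and for Cnn2 Wwc2 (0.91 and 0.89). For Cald1 it was the integrin gene Itga1 (0.98 and 0.97), and for Mylk Gm44079 (0.91 and 0.92). The other genes among the 5 closest were Fgf5, Fam169b, Olfml2b and Ggt1 for Acta2 and Krt19, Fam169b, Fbln7 and Irf7 for Tagln. Actg1 was among those of Myl9, Vcl among those of Tpm2, and the aldehyde dehydrogenase gene Aldh3a1 among those of Mylk.

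The keratin rule set its limit at 10 UMIs, and some members were also found below it. Cells just inside, with 10 to 14 UMIs of Krt5 plus Krt14, had Acta2 at 33.0 and 6.11 CPM, Tagln at 98.6 and 56.7 CPM and Cald1 at 110 and 71.4 CPM. Cells just outside, with 5 to 9 UMIs, had Acta2 at 21.95 and 15.92 CPM, Tagln at 55.6 and 27.1 CPM and Cald1 at 67.8 and 37.8 CPM. Only Acta2 in the library labelled PADI4 cKO was higher outside than inside among these values. There were 930 and 748 cells with 5 to 9 UMIs, of which 35 and 6 were in the Acta2 cluster.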

How the data were processed

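For both libraries the authors deposited whole-number UMI counts of every gene in every droplet, empty ones included and not normalized. The file headers name Cell Ranger 7.1.0, and the submitters' processing notes name mm10 and Scanpy. Whether intronic reads were counted is not given in the sources used here. CellBender and Harmony, which the study used, were not run.

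The study's cell filters were applied, with UMIs from 2000 up to 60000, genes from 1000 up to 8000, a mitochondrial share of no more than 20%, a hemoglobin share of no more than 1% and a ribosomal share inside the 5th to 99th percentile. Counts were scaled to 10000 UMIs per cell, log-transformed and clustered (1000 variable genes without the 8 members, S and G2M scores regressed out, 50 components, 15 neighbors, Leiden resolution 1.0) with Scanpy 1.11.5 and leidenalg 0.10.2 in Python 3.11.15. Doublets were scored with Scrublet and kept. Its automatic threshold failed in the WT library, so 0.179 was set for both, which called 4.08% and 4.44% of cells.

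Naming a cluster took 3 or more markers of 1 list, each raised 1.5-fold at a level of 5 CPM or higher. Leaving unnamed the clusters led by Krtap genes, with tied lists or with mixed cells was decided once the clusters were known. Levels are CPM of summed UMIs with exact Poisson intervals, shares have exact binomial (Clopper-Pearson) intervals, and ratios, with 0.5 UMI added to each sum, have exact conditional binomial intervals (SciPy 1.17.1). A ratio past 0.5, the threshold of the study's methods, or a 2-fold difference between clusters was counted over genes with at least 100 UMIs. The comparison was also run on simulated counts that held counting error only, so that run says nothing about variation between animals or libraries. Droplets under 100 UMIs gave the free RNA.

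The named genes are the 8 members, 4 lists of contractile and related genes, the 5 genes most like each member, the 10 leading genes of the Acta2 cluster, the cell type markers and Padi4, and the genes named for cluster 20 were chosen after its values were seen. The members and lists were chosen with earlier results of these data known. Feature IDs matched GENCODE vM21 for 32158 of 32285 genes. The alternatives, listed in the closing section, changed the keratin minimum, cell filters, doublets, clustering, free RNA, depth and gene minimum.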

Additional observations from a re-analysis of the deposited data

How the results depend on the processing

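No library ratio past 0.5 and no 2-fold cluster difference changed sign under the alternatives run, while that of Mylk between the libraries (0.07) became −0.74 in cells with Xist alone and that of Myl9 (−0.13) became 0.12 thinned to 2000 UMIs and −0.54 in cells with Xist alone. The library ratio of Acta2 (−0.88) became −0.74 with at least 20 keratin UMIs, −0.999 with empty-droplet UMIs subtracted, −0.64 thinned to 2000 UMIs and −1.46 in cells with Xist alone, and inside the Acta2 cluster (−0.67) it became −0.44 in cells with Xist alone, which is within 0.5. That of Tagln (−0.13) became −0.013 and −0.45 with 20 keratin UMIs and in cells with Xist alone. The log2 difference of Acta2 between its cluster and the other cells (4.98 over both libraries) became 4.26 at resolution 0.5, 3.76 at 2.0, 5.21 without cell cycle correction, 5.82 with empty-droplet UMIs subtracted and 7.06 without the mixed and melanocyte-like clusters. For Tagln (6.45) these were 5.31, 4.37, 6.19, 7.9985 and 6.67, with 6.67 also for clusters made with the members and 6.74 without doublets. Over both libraries pooled and among groups with at least 50 epithelial cells in each, the 7 members were highest in 1 cluster under each of these clusterings except at resolution 2.0, where 5 were highest in the smaller group and 2 (Tpm2 and Cald1) in the larger. The genes above 0.5 between the libraries (242) became 408 with a minimum of 50 UMIs, 93 with 500 and 371 in cells with Xist alone, and those below (573) became 843 with 50 UMIs, 228 with 500 and 341 in cells with Xist alone. Of the members' library ratios 20 moved and 60 stayed within their interval, and of their ratios within the cluster 4 moved and 20 stayed. The causes of these shifts were not tested. No paired analysis was possible because each genotype had 1 library and no test was run. Depth limits Mylk, whose interval between the libraries (−0.32 to 0.46) covers the ratios of all other members except Acta2.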
